A study of Homo sapiens with 52 samples.

Results

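UNC-1215 is a chemical probe of the methyl-lysine reader L3MBTL3. The comparison described here is between 2 RNA-seq samples of rhabdomyosarcoma cells exposed to UNC-1215 for 6 h, 1 at 10 µM and 1 at 1 µM, and the 4 DMSO columns of the same screen. DMSO is the solvent of the compounds. By the labels, the DMSO cells received 0.2% or 0.1% of it for 6 h, and each concentration has 2 columns. The study's methods state a lower solvent concentration, and the labels were followed. The second reference was GSKLSD1, an inhibitor of the lysine demethylase LSD1, with 1 sample at 10 µM and 1 at 1 µM for 6 h. Genes entered when their TPM was at least 1 in at least 2 of these 8 columns, which kept 14238 of the 27043 genes in the tables. TPM is the share of a gene among all transcripts after division by gene length, so that levels of different genes can be compared. The whole series holds 52 samples. Titles of the screen samples give the line as RH41 and the cell line label gives RH4, and both names stand for fusion-positive rhabdomyosarcoma (FP-RMS) cells, which carry the PAX3-FOXO1 fusion. All 8 columns come from this 1 line, and the labels do not say whether columns came from separate cultures. The p-values below therefore measure the spread between these samples, which may be technical.

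L3MBTL3 belongs to the proteins with MBT repeats, folds that hold mono- or dimethylated lysine in a pocket. These proteins are known as compactors or repressors of chromatin, and L3MBTL3 can be brought to Notch target genes by the DNA-binding protein RBPJ. UNC-1215 occupies the methyl-lysine pocket, so that the direct action is on binding and not on an enzyme. FP-RMS cells resemble muscle precursors held short of differentiation, and a small set of core regulatory transcription factors (CR TFs) is known to keep their program active.

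The UNC-1215 libraries held 41415071 reads at 10 µM and 32584459 reads at 1 µM, the GSKLSD1 libraries 36692594 and 34883261 and the DMSO columns between 16772069 and 22400978, as worked out from the steps of the TPM values. UNC-1215 and GSKLSD1 were sequenced on flow cell H0VWNAGXX, which held no DMSO library. The DMSO columns were sequenced on flow cells C4JM1ACXX (replicate 1) and H144EBGXX (replicate 2). A difference between UNC-1215 and DMSO and a difference between flow cells therefore cannot be told apart, while UNC-1215 and GSKLSD1 share theirs. For the 10378 genes that had 100 reads or more in every column, the part of the DMSO variance left after concentration and flow cell was 1.03 times counting noise. The 2 columns of a concentration were averaged for this reason and counted as 1 sample, which leaves 2 samples for each of the 3 groups. The variance between the DMSO flow cells was 2.21 times counting noise. Averaging takes this part out of the spread behind the p-values, although UNC-1215 and DMSO lie on different flow cells. The variance between the doses was 4.37 times counting noise for UNC-1215 and 8.98 times for GSKLSD1, and that between the DMSO concentrations was 2.47 times.

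UNC-1215 was among the compounds whose cells differed least from DMSO. Of 11121 genes with a mean TPM of at least 5 over the screen, 151 differed at least 1.5-fold from the DMSO mean, 138 of them higher and 13 lower. Only the SMARCA4 probe PFI-3, with 126 genes, had fewer among the 20 compounds of the screen, and GSKJ4, with 160, came next. GSKLSD1 on the same flow cell had 796 genes, and the deacetylase inhibitor LAQ824 had the most with 5599. These counts are a description, since the libraries of the compounds differ in depth and flow cell.

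**Figure D1:**
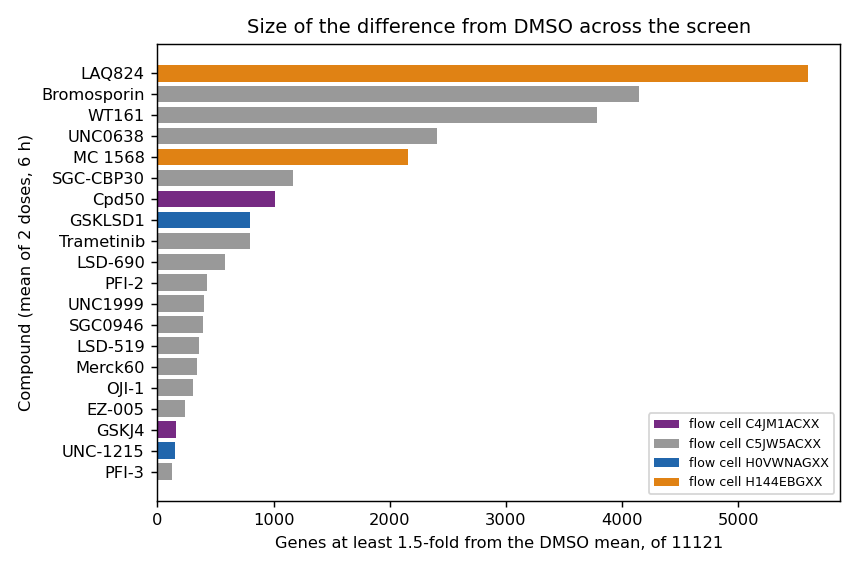
Number of genes at least 1.5-fold from the mean of the 4 DMSO columns (x axis, log2(TPM + 1) scale, 11121 genes with a mean TPM of at least 5) for each of the 20 compounds (y axis), with the 2 doses averaged and bars coloured by flow cell. UNC-1215, at 151 genes, is the second shortest bar and GSKLSD1, the other compound of its flow cell, reaches 796.

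Differences between UNC-1215 and DMSO were tested with limma on log2(TPM + 1) and Benjamini-Hochberg adjustment over the 14238 genes. Calls were made at an adjusted p below 0.05. The test called 42 genes higher in UNC-1215 (0.295% of those tested) and 16 lower (0.112%), and 19 of these 58 differed at least 2-fold. The median difference over all genes tested was 0.05 on the log2 scale. An unadjusted p below 0.05 in limma was reached by 2360 of the 14238 genes. For GSKLSD1 against DMSO, the same fit called 3714 genes higher (26.1%) and 973 lower (6.83%), with a median of 0.14, so 79.2% of the calls were higher. That share was 60.1% with median-ratio scaling of the columns (2474 higher, 1643 lower) and 57.7% with voom, the weights limma sets for counts, on whole reads (2909 and 2133). The 58 calls rest on both UNC-1215 samples. Without the 10 µM or without the 1 µM sample limma called 0 genes, with 1752 and 1177 genes at an unadjusted p below 0.05. In the fit of all 44 screen samples 7 genes were called, and without GSKLSD1 in the fit 708 were.

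**Figure D2:**
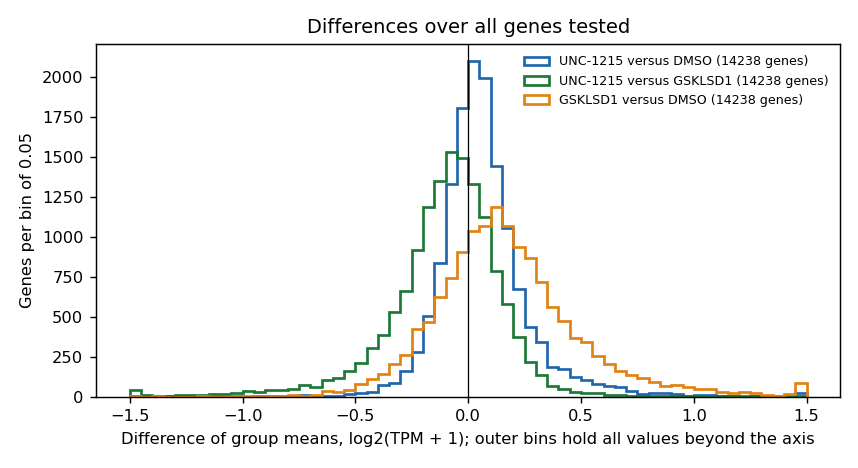
Histogram of the difference of group means in log2(TPM + 1) (x axis, bins of 0.05) over the 14238 genes tested (y axis, genes per bin) for UNC-1215 against DMSO, UNC-1215 against GSKLSD1 and GSKLSD1 against DMSO. The UNC-1215 against DMSO histogram is the narrowest, with its median at 0.05, while that of GSKLSD1 against DMSO is wider with its median at 0.14.

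The gene of the target and the 6 relatives that were kept differed from DMSO by no more than 0.08 on the log2 scale. L3MBTL3 (hg19 chr6:130339728-130462594, plus strand) had 8.38 and 8.91 TPM in 0.2% DMSO, 7.90 and 8.52 TPM in 0.1% DMSO, 7.84 TPM in 10 µM and 9.02 TPM in 1 µM UNC-1215. The UNC-1215 values lie on either side of the DMSO values, and their mean differed from DMSO by -0.001 ± 0.107 on the log2 scale (SE; n = 2 samples per group; adjusted p = 0.998 in limma). A compound that occupies a protein need not change the RNA of that protein, so the level does not check the labels. Of the 9 genes with MBT repeats, 7 were kept. Limma called 0 of these in either direction, beside 0.295% of all genes called higher and 0.112% lower. With 7 genes, 0 calls does not set the list apart. An unadjusted p below 0.05 in limma was reached by 0 of the 7, and voom on whole reads called 0 of them. Their log2 differences from DMSO ran from -0.02 for SCML2, a polycomb group protein, to 0.08 for SFMBT2. L3MBTL2, part of a polycomb repressive complex with PCGF6 and E2F6, had 41.5 to 44.6 TPM in DMSO and 44.7 and 45.3 TPM in UNC-1215. L3MBTL1 stayed below 1 TPM in all 8 columns, with 0.49 to 0.58 TPM in DMSO and 0.75 and 0.67 TPM in UNC-1215, and L3MBTL4 was listed at 0.

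Partners and other readers of methyl-lysine also gave 0 calls against DMSO (limma, 3 genes at an unadjusted p below 0.05; voom called 1, PSIP1). This held for the 12 kept genes of L3MBTL3 partners, among them the DNA-binding SAMD1 and the ubiquitin ligase receptor DCAF5. It held for 32 other reader genes (chromobox, PHD, tudor and ING families) and for 11 genes of the L3MBTL2-containing polycomb complex. The medians of these lists, 0.05, 0.04 and 0.04 on the log2 scale, stood beside 0.05 for all genes. Of all genes tested, 0.295% were called higher and 0.112% lower, so 0 calls in lists of this size does not set them apart. Within the polycomb complex list, PCGF6 had 26.7 to 29.0 TPM in DMSO, 29.9 and 30.1 TPM in GSKLSD1 and 31.3 and 31.0 TPM in UNC-1215. Both UNC-1215 samples were above every other column for PCGF6, but the difference of 0.16 missed the threshold (limma adjusted p = 0.277).

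Each of the 6 CR TF genes had a negative log2 difference from DMSO. Limma called 0 of them, beside 0.295% of all genes called higher and 0.112% lower, and 2 had an unadjusted p below 0.05. Voom on whole reads called MYOD1 only, of the 6. The CR TF score, the mean log2 difference of MYOD1, MYOG, SOX8, MYCN, FOXF1 and PAX3 from the DMSO mean, was -0.17 at 10 µM and -0.13 at 1 µM UNC-1215. The DMSO columns lay between -0.02 and 0.02, and the GSKLSD1 samples at -0.05 and -0.06. The groups did not overlap, and the difference was -0.15 from DMSO (SD of the UNC-1215 samples 0.03, n = 2) and -0.09 from GSKLSD1. With median-ratio scaling the latter was -0.030. The exact two-sided permutation test gave p = 0.333, the smallest value that 2 against 2 samples allow, for DMSO and for GSKLSD1 as the reference.

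MYOD1, a master regulator of muscle identity, had the lowest of the 6 differences. It measured 640 to 648 TPM in DMSO, 513 and 515 TPM in UNC-1215 and 517 and 466 TPM in GSKLSD1. All 4 treated samples were below all DMSO columns, and the UNC-1215 difference was -0.32 ± 0.06 (SE, n = 2 per group; limma adjusted p = 0.083). This position is not particular to these 2 compounds. The 38 treated columns of the screen other than UNC-1215 had 71.0 to 592 TPM of MYOD1, all below DMSO. Of these, 31 were below both UNC-1215 values. FOXF1, a forkhead factor, had 104 to 115 TPM in DMSO and 96.1 and 96.2 TPM in UNC-1215, with 90.5 and 91.1 TPM in GSKLSD1. SOX8, of the SOXE family, went a different way in the references. It had 664 to 707 TPM in DMSO, 755 and 758 TPM in GSKLSD1 and 639.9 and 641 TPM in UNC-1215, and was called lower in UNC-1215 than in GSKLSD1 (log2 difference -0.24 ± 0.04, limma adjusted p = 0.023; against DMSO adjusted p = 0.31). PAX3, whose promoter drives the fusion, had 33.8 TPM at 10 µM and 41.8 TPM at 1 µM, so that 1 dose lay below the DMSO range of 38.6 to 43.9 TPM and the other within it.

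**Figure D3:**
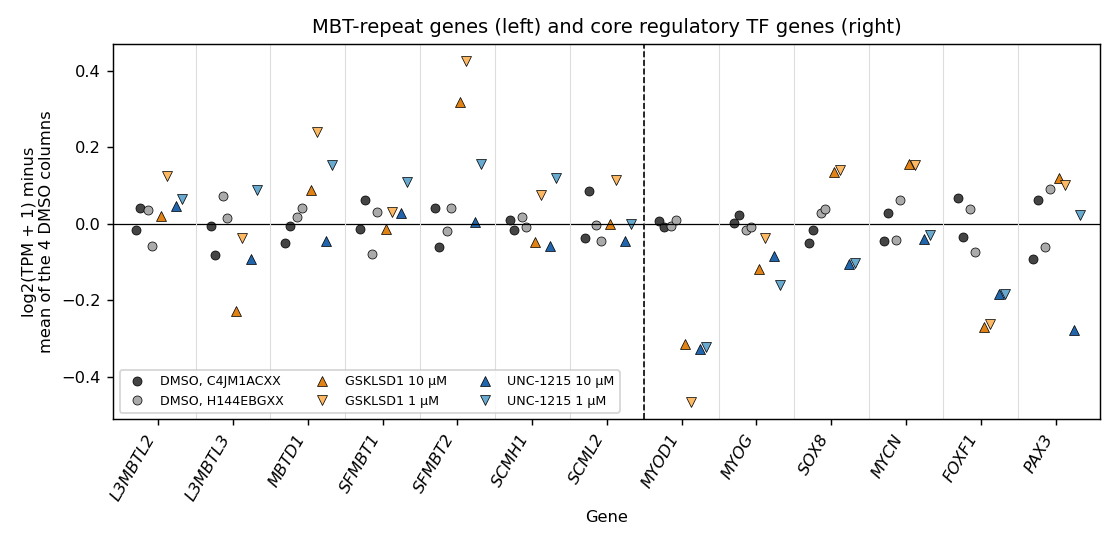
Difference of log2(TPM + 1) from the mean of the 4 DMSO columns (y axis) for the 7 kept MBT-repeat genes and the 6 CR TF genes (x axis), 1 point per column. Both UNC-1215 samples lie below the 4 DMSO columns for MYOD1, at 513 and 515 TPM, and the points of L3MBTL3 lie on either side of 0.

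The genes called higher than in DMSO were then read by what they encode. This grouping was made after the values were seen and was not tested. Of the 42 genes, 13 encode secreted or matrix proteins, 8 cell surface proteins and 6 proteins of signalling or transcription. Another 8 are small RNA genes, and 7 are other genes. THBS1, the matrix protein thrombospondin-1 (hg19 chr15:39873280-39891121, plus strand), had the largest difference among the secreted proteins. It had 17.1 to 20.8 TPM in DMSO, 46.3 TPM at 10 µM and 49.8 TPM at 1 µM UNC-1215. Both UNC-1215 values were over every DMSO value, 1.32 ± 0.08 higher on the log2 scale (SE; adjusted p = 0.0031 in limma). COL1A1, a chain of type I collagen, had 89.7 to 102 TPM in DMSO and 192 and 195 TPM in UNC-1215 (1.00 ± 0.05, adjusted p = 0.0019). The collagen cross-linking enzyme LOX, the matrix-linked growth regulator CTGF, the basement membrane proteins NTN4 and NPNT and the protease PLAU were called higher as well, by 0.48 to 0.75.

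Among surface proteins, CD36, a scavenger receptor for fatty acids and thrombospondin, had 17.6 to 19.6 TPM in DMSO and 40.2 and 40.5 TPM in UNC-1215 (1.09 ± 0.06, limma adjusted p = 0.0019). The growth factor receptor PDGFRB had 7.32 to 9.07 TPM in DMSO and 16.4 and 16.9 TPM in UNC-1215 (0.98 ± 0.09, adjusted p = 0.015). NRP1, a co-receptor of semaphorins and VEGF, had 13.7 to 14.4 TPM in DMSO and 23.0 and 22.8 TPM in UNC-1215. The receptors CCR7 and STRA6 and the peptidase MME were also called higher. For all 8 surface genes the 2 doses lay above the whole DMSO range, as they did for all 42 genes called higher. The genes were chosen by their difference from the same columns, so this adds nothing to the calls.

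The same 21 genes were also called higher in GSKLSD1 than in DMSO, as were 26.1% of all genes tested. Among the 21, THBS1 and NPNT were called lower in UNC-1215 than in GSKLSD1. THBS1 had 59.1 and 63.7 TPM there, COL1A1 211 and 208 TPM and CD36 38.8 and 41.1 TPM. Both GSKLSD1 samples were above all DMSO columns for 38 of all 42 genes called higher. The 42 were chosen by a difference from the same DMSO columns, and the share over all genes was not worked out. The count is therefore a description. The 38 include the 13 secreted and the 8 surface genes. The median difference between UNC-1215 and GSKLSD1 was -0.04 over the former and 0.08 over the latter on the log2 scale, against medians of 0.75 and 0.86 between UNC-1215 and DMSO. Of all 58 genes called against DMSO, 41 differed from GSKLSD1 by less than 0.25. How many of all genes tested lie that close was not worked out. This count is therefore also a description and does not set the 58 apart. The compound and the flow cell cannot be told apart for the 58 genes, because both compounds were sequenced on H0VWNAGXX and DMSO was not. On C4JM1ACXX, which held DMSO columns, the 4 columns of GSKJ4 and Cpd50 had 15.7 to 22.8 TPM of THBS1 and 21.6 to 24.8 TPM of CD36. On H144EBGXX, which held the other DMSO columns, the 4 columns of LAQ824 and MC 1568 had 65.7 to 83.5 TPM of THBS1, all above DMSO, and 18.1 to 50.7 TPM of CD36. On C5JW5ACXX, which held no DMSO, the median over 28 columns was 27.3 TPM of THBS1 and 23.6 TPM of CD36. The median of the 42 genes relative to DMSO was 0.79 for UNC-1215 and 0.82 for GSKLSD1. It ran from -0.02 for SGC-CBP30 to 0.72 for SGC0946 over the 14 compounds of C5JW5ACXX, and was 0.22 and 0.25 for Cpd50 and GSKJ4 and 0.29 and 1.23 for LAQ824 and MC 1568. All these compounds share the DMSO columns.

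**Figure D4:**
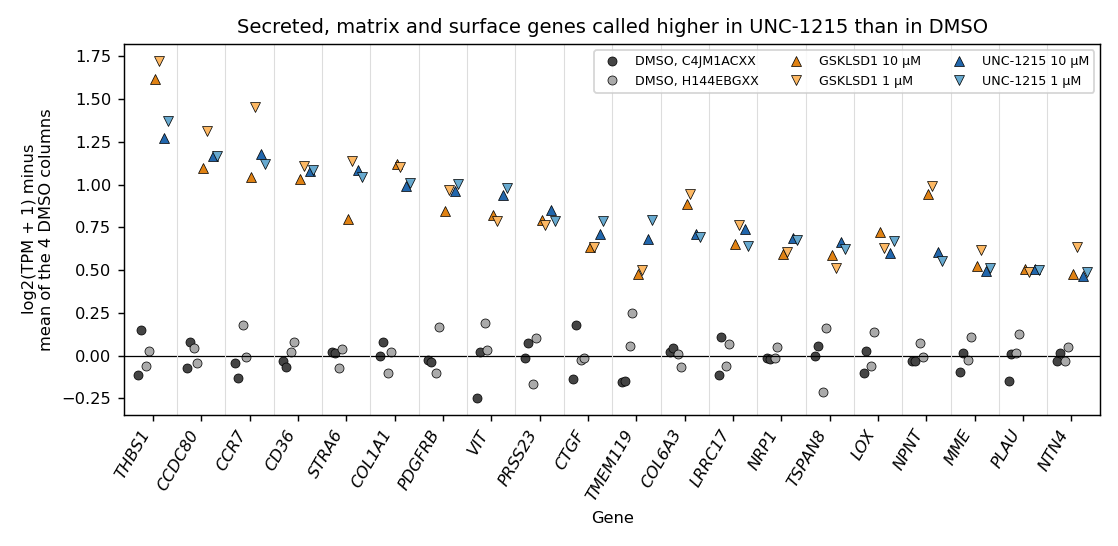
Difference of log2(TPM + 1) from the mean of the 4 DMSO columns (y axis) for 12 of the 13 secreted or matrix genes and the 8 surface genes called higher in UNC-1215 (x axis), 1 point per column, with DMSO points shaded by flow cell. All UNC-1215 and GSKLSD1 points lie above all DMSO points, and the 2 compounds lie close together for most genes, with THBS1 at 46.3 and 49.8 TPM in UNC-1215 and 59.1 and 63.7 TPM in GSKLSD1.

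Promoters were available in the RefSeq table (GRCh38.p14) for 25 of the 42 genes called higher and 9 of the 16 called lower. The 250 bases before the start were searched on both strands for GGAATG, the core of the TEAD motif, for TGANTCA, the AP-1 motif, and for CAGCTG, an E-box of the kind MYOD1 binds. GGAATG was present in 5 of the 25 higher genes (20%), among them THBS1 and CD36, and in 11.9% of all 35116 promoters. It was in 0 of the 9 lower genes. TGANTCA was present in 2 of 25 and 1 of 9 (6.57% of all promoters), and CAGCTG in 4 of 25 and 3 of 9 (14% of all). The promoters of THBS1 and CD36, called higher, and of BMF, called lower and described below, are shown 5′ to 3′ with the match in capitals, because these genes carry results of this comparison. Each holds 1 match, so that no motifs overlap. They lie at chr15:39580829-39581078 (plus strand), chr7:80601957-80602206 (plus strand) and chr15:40108880-40109129 (minus strand).
THBS1: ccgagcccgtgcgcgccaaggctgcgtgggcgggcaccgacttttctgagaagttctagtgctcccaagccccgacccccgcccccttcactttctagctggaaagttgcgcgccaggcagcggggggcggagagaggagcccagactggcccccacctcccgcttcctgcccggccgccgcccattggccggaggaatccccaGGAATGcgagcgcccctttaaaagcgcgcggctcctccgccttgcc
CD36: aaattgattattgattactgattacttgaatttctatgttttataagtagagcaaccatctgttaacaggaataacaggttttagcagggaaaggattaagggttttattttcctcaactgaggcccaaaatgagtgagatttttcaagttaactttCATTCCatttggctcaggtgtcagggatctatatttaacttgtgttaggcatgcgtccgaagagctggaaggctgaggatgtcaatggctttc
BMF: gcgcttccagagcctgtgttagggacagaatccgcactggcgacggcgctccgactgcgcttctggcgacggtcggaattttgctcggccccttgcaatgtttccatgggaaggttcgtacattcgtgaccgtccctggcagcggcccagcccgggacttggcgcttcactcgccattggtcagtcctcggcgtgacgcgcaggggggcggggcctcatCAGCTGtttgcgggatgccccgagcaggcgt
The GGAATG match of THBS1 lies 46 to 41 bases before the start. That of CD36 is on the other strand, 93 to 88 bases before it. The CAGCTG of BMF lies 31 to 26 bases before its start. A match is a run of letters in this window and says nothing of what binds there.

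Small RNA genes among the calls rest on few reads. MIR15A had 0 reads in DMSO and GSKLSD1 and 2 reads in each UNC-1215 library, and MIR1302-3 had 0 reads in DMSO and 5 in each UNC-1215 library. SNORD24, a guide of RNA methylation, had 5 to 11 reads in DMSO, 14 and 12 in GSKLSD1 and 24 and 18 in UNC-1215. Of 14 alternatives SNORD24 passed in 4 against DMSO and 7 against GSKLSD1, and MIR15A in 6 and 12. With such counts the fitted difference depends on the pseudocount, and poly-A libraries capture mature forms of these RNAs poorly. MT1X, a metallothionein, had 3 to 11 reads in DMSO and 33 and 34 in UNC-1215. In all, 6 of the 58 genes had a mean under 20 reads. With those and other genes under 20 reads left out, a filter added after the data were seen, 176 genes were called higher and 56 lower of 13088 tested, and all 52 of the 58 that were tested passed again.

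The genes named next are 4 of the 16 called lower, chosen after their values were seen. For 15 of the 16, both GSKLSD1 samples were also below all DMSO columns. The share of all genes for which this holds was not worked out. The median of the 16 relative to DMSO was -0.52 for UNC-1215 and -0.64 for GSKLSD1. Over the other compounds of the screen, which share the DMSO columns, it ran from -1.01 for SGC-CBP30 to 0.01 for trametinib. ACTC1, the cardiac actin made in embryonic muscle, had 585 to 599.7 TPM in DMSO, 409 and 426 TPM in UNC-1215 and 365 and 339 TPM in GSKLSD1 (UNC-1215 against DMSO -0.50 ± 0.06, limma adjusted p = 0.023). TAGLN, an actin-binding protein, had 71.0 to 80.6 TPM in DMSO and 46.4 and 48.2 TPM in UNC-1215 (-0.69 ± 0.06, limma adjusted p = 0.015). Its difference from GSKLSD1 ran from 0.22 to 0.34 over 15 alternatives and passed in 6, with UNC-1215 the higher. HMOX1, which degrades heme, had 34.8 to 39.2 TPM in DMSO, 22.1 and 23.3 TPM in UNC-1215 and 24.5 and 21.9 TPM in GSKLSD1. UNC-1215 differed by -0.69 ± 0.08 from DMSO (limma adjusted p = 0.025) and by -0.03 from GSKLSD1 (limma adjusted p = 0.81). RXRG, a retinoid X receptor, had 154 to 165 TPM in DMSO, 121 and 117 TPM in UNC-1215 and only 87.9 and 90.5 TPM in GSKLSD1, so that it was called lower than in DMSO and higher than in GSKLSD1.

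The 3 largest differences of the 16 lower genes stand beside a gap between the DMSO flow cells. ATP5E, a subunit of ATP synthase, had 112 and 114 TPM in UNC-1215, 200.4 and 204 TPM in the DMSO columns of C4JM1ACXX and 538 and 544 TPM in those of H144EBGXX. GNG10, a G protein subunit, had 1.75 and 1.46 TPM in UNC-1215, 2.79 and 3.25 TPM on C4JM1ACXX and 11.4 and 12.4 TPM on H144EBGXX. IGF2, the fetal growth factor, had 44.4 and 55.9 TPM in UNC-1215 but 67.8 and 69.1 TPM on H144EBGXX and 124 and 129.8 TPM on C4JM1ACXX. The DMSO flow cells differed at least 1.5-fold for these 3 and for 4 more of the 58 genes. ATP5E, GNG10 and IGF2 lost the call when the 4 DMSO columns were fitted as separate samples, as did 7 other genes, while 48 of the 58 kept it.

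DMSO and GSKLSD1 were then used together as references. Of 11050 genes with a mean TPM of at least 5, 400 had both UNC-1215 samples above all DMSO and GSKLSD1 columns (3.62%) and 486 had both below (4.4%). Any pair of columns lies beyond all the others for some genes, whatever the labels. How often this happens was not worked out, so the shares are a description and do not set UNC-1215 apart. Of these, 8 and 6 were called against DMSO. In all, 5 genes were called in the same direction against DMSO and against GSKLSD1, which is 8.62% of the 58 and 0.41% of the 1220 called against GSKLSD1. They are ANK1, BMF and LTBP1, lower, and the low-count SNORD24 and MIR15A, higher. Another 8 were called in opposite directions, with UNC-1215 between DMSO and GSKLSD1, and 45 were not called against GSKLSD1. The 8 are THBS1, NPNT, JAG1, NEU4, MIR548H4 and SNORA63, higher than in DMSO and lower than in GSKLSD1, and ACTC1 and RXRG, the reverse.

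ANK1 encodes an ankyrin, which ties membrane proteins to the cytoskeleton. It had 33.0 to 36.0 TPM in DMSO, 34.2 and 33.5 TPM in GSKLSD1 and 22.8 and 23.5 TPM in UNC-1215. The 6 reference columns overlapped, and both UNC-1215 samples lay under all of them. The log2 difference was -0.53 ± 0.06 from DMSO (limma adjusted p = 0.023) and -0.53 ± 0.06 from GSKLSD1 (adjusted p = 0.0041). Over 15 alternatives the difference from DMSO ran from -0.58 to -0.50, with limma adjusted p between 0.00019 and 1, and passed in 10. That from GSKLSD1 passed in 13. The level of ANK1 in UNC-1215 was not particular to this compound within the screen. Over the 38 other treated columns it ran from 2.43 to 45.5 TPM, with a median of 24.0 TPM. Of these columns, 17 were below both UNC-1215 values and 20 above both.

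BMF, a BH3-only promoter of apoptosis (hg19 chr15:40380091-40401085, minus strand), had 103 to 108 TPM in DMSO, 92.8 and 95.9 TPM in GSKLSD1 and 77.4 and 77.0 TPM in UNC-1215. The 3 groups did not overlap, and the difference was -0.45 ± 0.05 from DMSO (limma adjusted p = 0.023) and -0.29 ± 0.05 from GSKLSD1 (adjusted p = 0.017). LTBP1, which holds latent TGF-beta in the matrix (hg19 chr2:33172369-33624575, plus strand), had 106 to 110.1 TPM in DMSO, 96.4 and 95.1 TPM in GSKLSD1 and 83.2 and 81.3 TPM in UNC-1215. Its difference was -0.39 ± 0.05 from DMSO (adjusted p = 0.034) and -0.22 ± 0.05 from GSKLSD1 (adjusted p = 0.04). Of 15 alternatives, BMF passed in 10 against each reference, and LTBP1 in 9 against DMSO and 7 against GSKLSD1 (limma adjusted p up to 0.97 there). BMF was below both UNC-1215 values in 8 of the 38 other treated columns of the screen and LTBP1 in 9. The ephrin receptor EPHB2, the transcription factor GATA2 and the neurotrophin receptor NGFR followed the same order, with GSKLSD1 between DMSO and UNC-1215, but were not called against GSKLSD1 (limma adjusted p = 0.097, 0.1 and 0.29).

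On the higher side, STATH, a salivary calcium-binding peptide, had 98.9 to 114 TPM in DMSO, 147 and 130.1 TPM in GSKLSD1 and 169 and 161 TPM in UNC-1215 (0.67 ± 0.07 from DMSO, limma adjusted p = 0.023; 0.25 ± 0.07 from GSKLSD1, adjusted p = 0.077). CTGF (hg19 chr6:132269317-132272518) had 17.8 to 22.4 TPM in DMSO, 31.2 and 31.1 TPM in GSKLSD1 and 32.9 and 34.7 TPM in UNC-1215. NRP1, the surface protein TSPAN8 and the decarboxylase GADL1 stood in the same order, each within 0.1 of GSKLSD1. ALOX5AP, which activates 5-lipoxygenase, was named after its values were seen. It had 10.0 to 13.7 TPM in DMSO, 10.3 and 12.5 TPM in GSKLSD1 and 19.1 and 19.1 TPM in UNC-1215. Of the 400 genes above both references, it had the largest difference from the nearer of the 2 reference groups. It was called against GSKLSD1 (0.71, adjusted p = 0.025) and not against DMSO (0.65, adjusted p = 0.11).

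**Figure D5:**
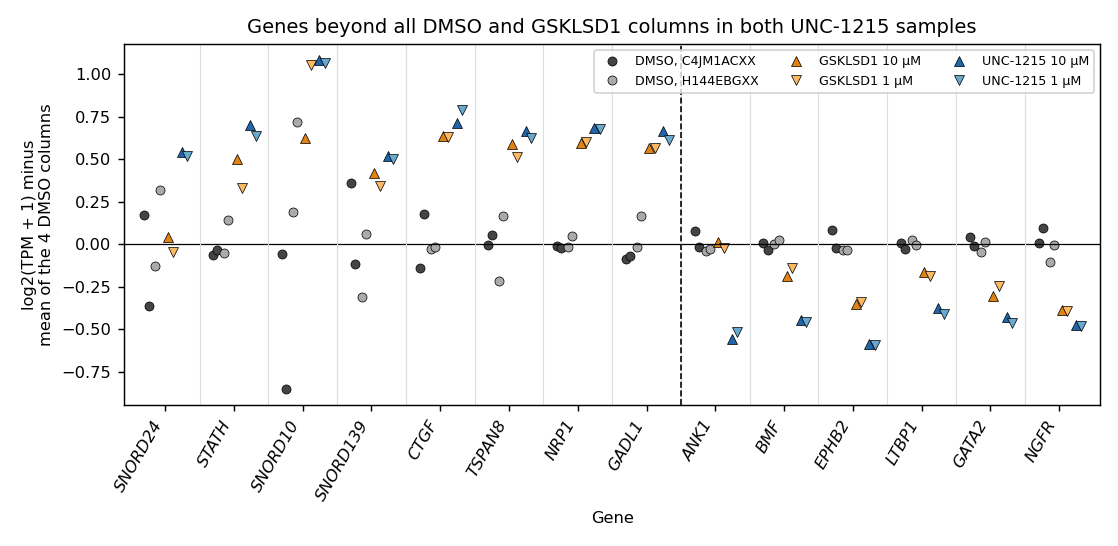
Difference of log2(TPM + 1) from the mean of the 4 DMSO columns (y axis) for the 8 genes called higher and the 6 called lower whose 2 UNC-1215 values lie beyond all DMSO and GSKLSD1 columns (x axis, dashed line between directions), 1 point per column. For ANK1 the GSKLSD1 points, at 34.2 and 33.5 TPM, lie with DMSO and the UNC-1215 points, at 22.8 and 23.5 TPM, lie apart, while for NRP1 and CTGF GSKLSD1 lies close to UNC-1215.

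Gene lists were read by counts and medians, beside the 0.295% of all genes tested that were called higher than in DMSO and the 0.112% called lower. An unadjusted p below 0.05 in limma was reached by 2360 of the 14238 genes against DMSO and by 4116 against GSKLSD1. Of 22 kept genes of the Notch pathway, 2 were called higher than in DMSO and 0 lower. They were the ligand JAG1, with 18.8 to 21.5 TPM in DMSO and 31.1 and 31.5 TPM in UNC-1215, and the target HES4, with 11.6 to 12.2 TPM in DMSO and 21.1 and 18.9 TPM in UNC-1215. Both were higher still in GSKLSD1, at 38.1 and 38.8 TPM for JAG1 and 22.3 and 24.8 TPM for HES4. JAG1 was called lower in UNC-1215 than in GSKLSD1 (-0.29, limma adjusted p = 0.049). Of the other Notch genes, the receptor NOTCH3 had 104 to 113 TPM in DMSO and 132 and 143.8 TPM in UNC-1215 (adjusted p = 0.082) and the target HEYL had 182 to 208 TPM in DMSO and 222 and 242 TPM in UNC-1215 (adjusted p = 0.16). The canonical targets HES1 and HEY1 were not called. The median over the list was 0.12 against DMSO, beside 0.05 for all genes. It was 0.25 for GSKLSD1 against DMSO, beside 0.14, and -0.22 for UNC-1215 against GSKLSD1, beside -0.08. In GSKLSD1, 15 of the 22 were called higher than in DMSO, as were 26.1% of all genes tested. Between the compounds, 5 were called lower in UNC-1215 and 0 higher, beside 7.61% and 0.955% of all genes.

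Of 15 kept genes of TGF-beta, BMP and ID signalling, 2 were called higher, CTGF among them, and 1 lower (LTBP1), with a median of -0.09. TGFBI, a secreted TGF-beta target, had 2.5 to 3.26 TPM in DMSO, 3.13 and 3.6 TPM in GSKLSD1 and 5.74 and 4.68 TPM in UNC-1215 (0.64, limma adjusted p = 0.11). ID2, an inhibitor of bHLH factors, had 15.1 to 19 TPM in DMSO and 14.9 and 11.5 TPM in UNC-1215. Of 18 sarcomere genes, 1 was called lower (ACTC1) and 0 higher, with a median of -0.13. Against GSKLSD1, 2 sarcomere genes were called higher, ACTC1 (0.25, limma adjusted p = 0.04) and the myosin light chain MYL4 (0.31, adjusted p = 0.026), and 4 lower. The 4 are the giant filament protein NEB, cardiac troponin TNNT2, MYBPH and the calcium channel RYR1 (adjusted p = 0.034, 0.027, 0.014 and 0.048), and against DMSO none of the 4 passed (limma adjusted p = 0.41 to 0.81). Of 14 FP-RMS and myogenic markers 0 were called (limma, 7 at an unadjusted p below 0.05; voom called 1, MYOD1), and their summed level was 4000 to 4160 TPM in DMSO and 4030 and 4063 TPM in UNC-1215.

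Of 22 kept respiratory chain genes, 2 were called lower than in DMSO and 0 higher. They were ATP5E, whose DMSO flow cells disagree, and ATP5J2, another ATP synthase subunit, with 339 to 356 TPM in DMSO and 271 and 252 TPM in UNC-1215. The median over the list was -0.18 against DMSO, -0.42 for GSKLSD1 against DMSO and 0.23 for UNC-1215 against GSKLSD1. The 17 kept ribosomal protein genes gave medians of -0.09, -0.32 and 0.22 in the same order, with 0 called between UNC-1215 and either reference (limma, 4 against DMSO and 15 against GSKLSD1 at an unadjusted p below 0.05). With voom on whole reads 0 were called against DMSO and 16 were called higher than in GSKLSD1. Across genes, length moved with the differences. The 11050 genes with a mean TPM of at least 5 were split into 3 equal groups by length. In the shortest group (median 1575 bases) the median was 0.01 for UNC-1215 against DMSO, 0.02 against GSKLSD1 and 0.00 for GSKLSD1 against DMSO. In the longest group (median 5707 bases) the medians were 0.05, -0.14 and 0.20. The medians of the ribosomal and respiratory chain lists were larger in size than those of the shortest group in each comparison. The part of length in the results was not tested.

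Lists for stress, growth and metabolism gave 0 calls against DMSO, metallothioneins apart. Among immediate early genes (16 kept), ERK feedback genes (14), p53 targets (16), DNA replication and E2F targets (24), mitosis (21), cholesterol synthesis (23), ATF4 and unfolded protein response (20), heat shock (12), hypoxia (15), lysosome and autophagy (23), interferon and antigen presentation (11) and histones (13) limma called 0 of 207 genes, with 46 at an unadjusted p below 0.05, and voom on whole reads called 11. Their medians lay between -0.07 and 0.13. As 0.295% of all genes were called higher and 0.112% lower, 0 calls among 207 genes does not set these lists apart. The early gene JUN had 376 to 392 TPM in DMSO and 333 and 330.2 TPM in UNC-1215 (adjusted p = 0.12), and the p53 target CCNG1 101 to 107 TPM in DMSO and 126 and 130.4 TPM (adjusted p = 0.092). Of 3 kept metallothionein genes, MT1X was called higher, from 1.21 to 3.35 TPM in DMSO to 5.43 and 7.32 TPM in UNC-1215.

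Marker genes of other cell types were at low levels throughout, fibroblast collagens apart. The 7 epithelial markers were all below 1 TPM, the 8 immune markers summed to 4.44 to 4.97 TPM in DMSO and 4.55 and 5.29 TPM in UNC-1215, and the 6 endothelial markers to 2.44 to 3.53 TPM and 2.91 and 2.97 TPM. The 8 fibroblast markers summed to 2136 to 2179 TPM in DMSO, 2668 and 2964 TPM in GSKLSD1 and 2626 and 2639.9 TPM in UNC-1215. Nearly all of it came from the collagen COL3A1, at 2030.2 to 2067 TPM in DMSO and 2415 and 2426 TPM in UNC-1215 (limma adjusted p = 0.17). LUM and THY1 were below 1 TPM in every column. All 6 kept members had a positive difference from DMSO, with a median of 0.30 beside 0.05 for all genes. COL1A1 was called higher, and 4 of the 6 had an unadjusted p below 0.05 in limma. FAP, a surface protease, had 1.41 to 2.46 TPM in DMSO, 2.73 and 2.85 TPM in GSKLSD1 and 3.65 and 4.12 TPM in UNC-1215 (0.72, adjusted p = 0.07). PDGFRA, a growth factor receptor, had 6.51 to 7.41 TPM in DMSO, 5.58 and 6.54 TPM in GSKLSD1 and 8.86 and 9.58 TPM in UNC-1215, and was called against GSKLSD1 (0.54, limma adjusted p = 0.024) and not against DMSO (0.34, adjusted p = 0.197). These values stand beside the matrix genes above, and whether other cells had a part in those was not tested.

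Against GSKLSD1, limma called 136 genes higher in UNC-1215 (0.955% of 14238) and 1084 lower (7.61%), so 11.1% of the calls were higher. With median-ratio scaling of the columns 280 were higher and 855 lower, or 24.7% higher, and with voom on whole reads 874 and 1437, or 37.8%. Of the 12 most negative called differences among genes with a mean TPM of at least 5, small RNA genes apart, 9 were within 0.25 of DMSO in UNC-1215. The 5 genes named next were chosen after their values were seen. SYNGR2, a vesicle membrane protein, had 13.6 to 16.0 TPM in DMSO, 16.1 and 14.3 TPM in UNC-1215 and 79.6 and 64.4 TPM in GSKLSD1. PODXL, a podocalyxin of the cell surface, had 39.6 to 44.5 TPM in DMSO, 38.5 and 39.1 TPM in UNC-1215 and 117 and 119 TPM in GSKLSD1. The sialidase NEU4 lay between, with 3.42 to 4.04 TPM in DMSO, 9.82 and 8.89 TPM in UNC-1215 and 21.1 and 26.7 TPM in GSKLSD1, and was called in both comparisons in opposite directions. SNAI1, a repressor of epithelial genes, had 142 to 160.0 TPM in DMSO, 311 and 273 TPM in GSKLSD1 and 118 and 116 TPM in UNC-1215, called against GSKLSD1 (-1.31, adjusted p = 0.00087) and not against DMSO (-0.35, adjusted p = 0.11). DACT3, an inhibitor of Wnt signalling, was higher in UNC-1215 than in GSKLSD1 (0.89, adjusted p = 0.0041), with 11.5 to 16.2 TPM in DMSO, 11.4 and 12.4 TPM in UNC-1215 and 6.17 and 5.78 TPM in GSKLSD1.

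The doses of UNC-1215 were compared by counts of genes. Between 10 and 1 µM, 31 of 11050 genes were at least 1.5-fold higher and 36 at least 1.5-fold lower at 10 µM, and 56 of these 67 were small RNA genes. The GSKLSD1 doses gave 137 such genes, 13 higher and 124 lower at 10 µM. The 2 DMSO concentrations gave 79 with columns averaged and 138 or 110 within a flow cell. The UNC-1215 count was the lowest of these, while the SD of the log2 difference over the 11050 genes was 0.137 for UNC-1215, 0.190 for GSKLSD1 and 0.133 for the averaged DMSO columns. The libraries differ in depth, and with 1 sample per dose there is no test. The largest dose differences were in MIR7110 (4.64 TPM at 10 µM and 0 TPM at 1 µM), MIR93 and MIR7111, higher at 10 µM, and MIR378J, SNORD75 and MIR7856, lower. The other 11 genes, named after their values were seen, include ANXA2P2 (38.1 and 19.3 TPM; 5.49 to 33.2 TPM in DMSO), which shares sequence with its parent gene, and NBPF8 (6.52 and 14.9 TPM; 6.78 to 14.8 TPM in DMSO). For both, the DMSO range was about as wide as the gap between doses or wider.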

How the data were processed

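The authors selected poly-A RNA, aligned paired reads to hg19 with STAR and deposited TPM values per gene, normalised for gene length and depth, with RSEM named for the quantification; the submitters' processing notes also list edgeR. Each table sums to a fixed total. Groups came from the labels. Whole reads were rebuilt from the TPM steps for 23645 of 23645 genes above 0 (tolerance 1e-05 of a read), tested on simulated data, and used for depth, read counts and alternatives only. RSEM estimates need not be whole, so how the TPM were made is not settled. They cover counting error only. Genes with TPM of at least 1 in 2 of 8 columns were fitted on log2(TPM + 1) with limma 3.58.1 (R 4.3.3; lmFit, eBayes with trend) with 3 groups of 2 samples, UNC-1215 and GSKLSD1 doses and DMSO concentrations serving as replicates, and Benjamini-Hochberg adjustment over 14238 genes; fold changes understate low genes. On simulated data limma called 31 of 13938 unchanged genes against DMSO, 29 of them under 20 reads, and 33 against GSKLSD1, 31 under 20. Of 50 genes per fold (1.25, 1.5, 2 and 4), 3, 30, 50 and 50 were called against DMSO. With a mean of at least 20 reads, 17 and 24 unchanged genes were still called, beside 8, 44, 50 and 50 changed genes against DMSO. False calls were a larger share of the simulated calls than the adjusted p threshold, with and without this filter. Named genes were the MBT-repeat and CR TF genes, up to 12 per direction called against DMSO and beyond both references ranked by the smaller difference, up to 4 per list and 3 per direction of dose. Members and lists were chosen with earlier results of these data known. Current or older symbols matched for 144 of 159 genes, and 141 lay at the same place in the GRCh37 annotation. Alternatives changed the pseudocount, scaling, filters, samples in the fit, DMSO columns and test (voom on whole reads). Some genes are not reported here.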

Additional observations from a re-analysis of the deposited data

How the results depend on the processing

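The number of genes called between UNC-1215 and DMSO (58) varied widely. It was 88 with a pseudocount of 0.1, 14 with all genes above 0, 7 with all 44 screen samples in the fit, 708 with the 2 groups alone, 493 with 4 DMSO columns as separate samples, 425 with voom weights, 232 with a mean of at least 20 reads (chosen after seeing the data) and 19 with a 2-fold minimum. With 1 sample left out it ran from 0 to 719, with 0 without either UNC-1215 sample, 9 without 0.2% DMSO, 8 without 0.1% DMSO and 718 or 719 without a GSKLSD1 sample. A lone sample was then assumed to vary like the other groups. Median-ratio scaling gave 78, a mean TPM of at least 5 gave 80, and DMSO of C4JM1ACXX or H144EBGXX alone gave 76 and 55, with 47 and 37 of the 58 genes called again. All 58 kept their sign wherever they were tested.

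Against GSKLSD1 the 1220 calls became 686 with all genes above 0, 108 with 44 samples, 485 with the 2 groups alone, 1865 with 4 DMSO columns, 2311 with voom, 115 with a 2-fold minimum, and 158 to 3677 with 1 sample left out. For GSKLSD1 against DMSO 4687 became 591 with 44 samples and 296 with a 2-fold minimum, and 810 to 6352 with 1 sample left out. With median-ratio scaling the CR TF score moved from -0.15 to -0.18 against DMSO and from -0.09 to -0.030 against GSKLSD1. The 67 genes that differed between doses became 18 at 2-fold and 239 once genes down to a mean TPM of 1 entered. The cause of these shifts was not tested, except that filters and left-out samples change the genes or samples by construction. No called direction of a named gene turned in any alternative.

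The compound samples carry no replicate numbers, but dose level (10 µM with 0.2% DMSO, 1 µM with 0.1%) can serve as a replicate block, a fit added after the data were seen that leaves 2 residual degrees of freedom. With this block 49 genes were called against DMSO, 35 of the 58 among them, 1268 against GSKLSD1 and 4651 for GSKLSD1 against DMSO. The high minus low differences correlated across 10792 genes at r = 0.07 (UNC-1215 and GSKLSD1), 0.07 (UNC-1215 and DMSO) and -0.06 (GSKLSD1 and DMSO). Depth limits genes under 20 reads, and 2 samples per group with 3 residual degrees of freedom limit the rest.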
